A study of Mus musculus with 155 samples.

Results

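Transcripts of cyclin D2 (Ccnd2) and of the mitosis genes Top2a, Birc5 and Ckap2l were followed cell by cell in 5 populations of sorted mouse brain cells. The genes were chosen by symbol, and all 4 were among the 3422 genes of the table, with 1 row each. Single cells were sorted from the corpus callosum, a white matter tract, and from the subventricular zone beside it, which makes new neurons throughout adult life. The assay was SMART-Seq2 on polyadenylated RNA, which reads whole transcripts. The study's title concerns a change of neuroblasts into oligodendrocytes after loss of myelin.

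OligNBL cells (n = 40) carried both reporters and came from a cross of CB6-Tg(Gad1-EGFP)G42Zjh/J with Olig2-tdTomato TH39Gsat/Mmcd mice, 6 days after injection of LPC, a lipid that strips myelin. OL cells (n = 22) were Tomato-positive cells of Olig2-tdTomato TH39Gsat/Mmcd mice at the same time after LPC, and O cells (n = 29) were Tomato-positive cells of healthy, non-injected mice of that strain. NBL cells (n = 27) were GFP-positive cells of CB6-Tg(Gad1-EGFP)G42Zjh/J mice 6 days after LPC, and NB cells (n = 37) were GFP-positive cells of healthy mice of that strain. All mice were 8 to 10 weeks old, with 5 mice per condition. The titles of OligNBL cells carry a control mark although the labels give a lesion; the lesion state is used here. GFP marks cells that use the Gad1 gene and Tomato cells that use Olig2, so each population is defined by a reporter gate and not by a cell type, and strain differs with the gate.

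The labels tie no cell to a mouse. A population thus counts as 1 sample, populations were compared without a test, and no difference has a replicate check. Values were deposited on a scale that is nearly the same in every cell (column totals differed by 0.101%), so a gene's value in a cell follows its rank among the 3422 genes of that cell, and sequencing depth cannot be read from it. A gene's level is the mean of log2(value + 1) over cells, given with the SD between cells. A gene is called present in a cell when it was among the cell's 500 highest genes; 2 NB cells with fewer detected genes are left out of such shares. Intervals on shares are exact 95% binomial ones. They cover counting error alone and take cells as independent, which neighbouring cells were not. The median number of genes detected was 1397 in OligNBL, 950.5 in OL, 1187 in O, 1161 in NBL and 1114 in NB cells.

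Cells are named here by the number in their titles (CRBT66). Within a population, cells with close numbers were alike. The mean correlation was 0.49 to 0.56 where numbers differed by 4 or less, against 0.19 to 0.35 where they differed by 17 or more. Average linkage with a limit of 0.4, run without the 4 genes and all cell cycle lists, gave 20 sets of alike cells. Of the cells, 149 fell into 21 single-population parts that held 3 cells or more. Many genes were present in nearly all cells of some part. Of the 3422 genes, 2002 (58.5%) were present in at least 90% of the cells of at least 1 such part. This count sets no limit on presence in other parts. Whether these sets follow mice, plates or cell states was not tested, as no label bears on it.

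The populations were checked against marker genes. Of 13 measured genes of mature oligodendrocytes, OL cells had a median of 9.5 present (range 3 to 12) and O cells 8 (7 to 11), against 0 in OligNBL (0 to 2), NBL (0 to 2) and NB cells (0 to 4); the myelin genes Mbp, Mog and Mal were present in no OligNBL, NBL or NB cell. Of 17 neuroblast genes, a median of 6 was present in OligNBL, 2 in OL, 1 in O, 5 in NBL and 5 in NB cells. Of 6 oligodendrocyte progenitor genes the median was 1 in OligNBL cells and 0 in the other populations. Of 2 measured genes of transit amplifying progenitors, Egfr and Dlx2, at most 1 was present in any cell; Egfr was present in no OligNBL, NBL or NB cell and Dlx2 in no O cell. Of 8 endothelial and mural genes 1 was measured, and its median per cell was 1 in all 5 populations. Snap25, the 1 measured gene of mature neurons, had a median of 1 in O cells and 0 in the others, and was present in no NBL or NB cell. Genes of astrocytes and neural stem cells, microglia and ependymal cells were not analysed here.

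D-type cyclins bind the kinases Cdk4 and Cdk6 in G1, and the complex phosphorylates the retinoblastoma protein, which frees E2F factors to switch on genes of DNA replication. Top2a, Birc5 and Ckap2l are genes of the later part of the cycle and are usually expressed together in cells that go through G2 and mitosis. In the adult subventricular zone, stem cells give rise to transit amplifying cells and these to neuroblasts, some of which still divide while they migrate, and mice without Ccnd2 make few new neurons as adults.

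Ccnd2 (ENSMUSG00000000184.12; GRCm38 chromosome 6, 127125162 to 127152193, minus strand) encodes cyclin D2, the D-type cyclin of these progenitors. Its transcript was present in nearly every GFP cell, and its median value was lower in double reporter and Tomato cells. The value had a minimum of 0, a median of 30.5 and a maximum of 17336 in OligNBL cells, and 0, 2.71 and 53599 in OL cells. In O cells it ran from 0 over a median of 12.8 to 25059. NBL cells had values from 5.81 to 289151 with a median of 3271, and NB cells from 9.60 to 741641 with a median of 4004. The medians of both GFP populations thus lay far above those of the other 3, but the ranges of all populations overlapped.

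By presence the GFP cells were also highest, but with a smaller gap to OligNBL and O cells than to OL cells. Ccnd2 was present in 30 of 40 OligNBL cells (75%, interval 58.8 to 87.3%), 5 of 22 OL cells (22.7%, 7.82 to 45.4%) and 18 of 29 O cells (62.1%, 42.3 to 79.3%). It was present in 25 of 27 NBL cells (92.6%, 75.7 to 99.1%) and 34 of 35 NB cells (97.1%, 85.1 to 99.9%). The OligNBL and O intervals overlapped with that of NBL cells. Among the 300 highest genes Ccnd2 was found in 47.5% of OligNBL, 22.7% of OL, 31% of O, 88.9% of NBL and 97.1% of NB cells, so the gap to OligNBL and O depends on the limit. As a rank within the cell, where 1 is the highest of the 3422 genes, Ccnd2 had a median of 307.5 in OligNBL, 781.5 in OL, 461 in O, 75 in NBL and 68 in NB cells.

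**Figure D1:**
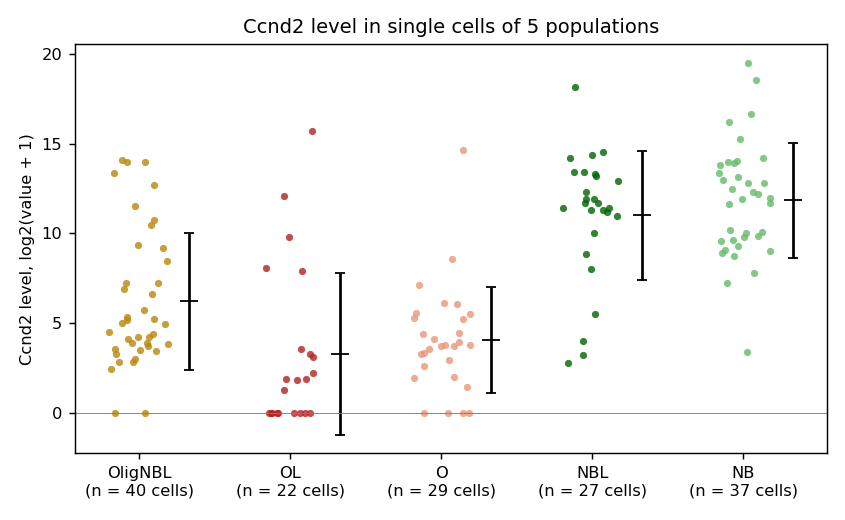
Ccnd2 level (log2 of value + 1, vertical axis) in each cell (points) of the 5 populations, with the mean and SD between cells as black bars. OligNBL cells centre on 6.23, OL cells on 3.31, O cells on 4.05, NBL cells on 11.002 and NB cells on 11.84, with cells at 0 in OligNBL, OL and O.

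The order of the Ccnd2 levels was NB, NBL, OligNBL, O and OL. The level was 6.23 ± 3.82 in OligNBL (n = 40 cells), 3.31 ± 4.51 in OL (n = 22), 4.05 ± 2.95 in O (n = 29), 11.002 ± 3.60 in NBL (n = 27) and 11.84 ± 3.18 in NB cells (n = 37). Between neighbours in this order, OligNBL and NBL differed by more than either SD (-4.77, OligNBL minus NBL). The other neighbours, NBL and NB, OligNBL and O, and OL and O, differed by less than the SD between cells.

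OligNBL against NBL sets cells with both reporters beside GFP cells of the same lesion state. The Ccnd2 level was 6.23 ± 3.82 in OligNBL and 11.002 ± 3.60 in NBL cells, a difference of -4.77. Of all 3422 genes, 20.3% were lower in OligNBL by at least 1 on this scale and 25.7% higher, and 2.66% of the genes had a difference below that of Ccnd2. Of the 4 genes, 3 were lower by at least 1 (Ccnd2, Top2a and Ckap2l) and none was higher. The Top2a difference was -0.15 without 1 set of NBL cells, and that of Ckap2l was -0.79 with a pseudocount of 10, so that the Ccnd2 call alone held under every alternative. Against NB cells the Ccnd2 difference was -5.61, with 0.818% of genes below it; 18.9% of all genes were at least 1 lower in OligNBL there, and 2 of the 4 genes, Ccnd2 and Ckap2l. These 2 comparisons share the OligNBL cells.

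Inside the OligNBL population Ccnd2 was spread widely. A value of at least 1000 was found in 8 of 40 OligNBL cells, against 21 of 27 NBL cells and 25 of 37 NB cells. The 8 cells came from 4 sets: the highest values were 17336 and 15980 in CRBT137 and CRBT139, 15980 in CRBT110 and 10502 in CRBT10. The 5 parts of the population with at least 3 cells had mean levels between 4.39 and 10.34, and those of NBL between 6.48 and 13.78, so the parts overlapped. The top OligNBL part was 4 cells (CRBT10, CRBT11, CRBT112 and CRBT113) with a level of 10.34 ± 3.17 and a median of 4 of 6 oligodendrocyte progenitor genes present, which was the highest median of any part.

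OligNBL against OL compares double reporter with Tomato cells of demyelinated mice. Ccnd2 was at 6.23 ± 3.82 in OligNBL and 3.31 ± 4.51 in OL cells, which put OligNBL 2.92 higher, within either SD; 27.3% of all genes were at least 1 higher in OligNBL and 21.1% at least 1 lower. Of the 4 genes, Ccnd2 was higher and Birc5 lower by that much. With a pseudocount of 10 the difference was 1.59. The OL level rested on 3 neighbouring cells, CRBT180 to CRBT182, with Ccnd2 values of 53599, 4300 and 895.7. Without them the difference was 4.38.

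These 3 OL cells stood apart in other genes as well. The other OL parts had Ccnd2 levels of 2.74, 1.66 and 0.00, against 12.53 ± 2.98 in the 3 cells. In all 3 the ribonucleotide reductase subunit Rrm2, which makes DNA precursors, and the cyclin-dependent kinase inhibitor Cdkn1b were present, the spindle midzone gene Prc1 was present in 2 and Birc5 in 1. The 3 cells had between 3 and 7 of the 13 mature oligodendrocyte genes present, against 9 to 12 in the other OL cells. They held a median of 852 detected genes. The part of the marker genes and of detection in the Ccnd2 values was not tested.

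NBL against NB sets GFP cells after demyelination beside GFP cells of healthy mice. Ccnd2 was at 11.002 ± 3.60 in NBL and 11.84 ± 3.18 in NB cells, a difference of -0.83, which was smaller than the SDs and did not reach 1; 17.3% of all genes were at least 1 lower in NBL and 17.4% at least 1 higher. Of the 4 genes, Top2a was higher and Ckap2l lower by that much. The Ccnd2 difference was -1.18 without cells numbered 21 or below and 0.07 with sets weighted equally. The lowest 6 NBL values lay in 7 neighbouring cells, CRBT78 to CRBT84, with values from 5.81 to 7695 and a level of 6.48 ± 3.67. All 20 other NBL cells had at least 1056. In the 7 cells the neuroblast list had a median of 7 of 17 genes present, the highest median of any part.

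Sets that joined cells of both GFP populations gave opposite directions for Ccnd2. In a set of 3 NBL and 6 NB cells, the values were 2535, 3271 and 3922 in NBL, against a range of 5755 to 741641 in NB. In a set of 2 NBL and 11 NB cells, the values were 11063 and 23570 in NBL, against 149.1 to 18391 in NB. How many of all genes separate between groups this small was not counted, so neither direction is read as a difference.

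OL against O sets Tomato cells after demyelination beside those of healthy mice. Ccnd2 was at 3.31 ± 4.51 in OL and 4.05 ± 2.95 in O cells, a difference of -0.74, while 15.7% of all genes were at least 1 lower in OL and 15.9% at least 1 higher; of the 4 genes only Birc5 was, and none was lower. The Ccnd2 difference was -2.20 without the 3 OL cells named above and 0.11 with a pseudocount of 10. In a set of 3 OL and 9 O cells Ccnd2 was listed at 0 in every OL cell, against values from 0 to 46.5 in O. Presence was 22.7% in OL against 62.1% in O cells, with intervals that overlap.

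O against NB, the healthy populations, gave the widest difference in Ccnd2. The level was 4.05 ± 2.95 in O and 11.84 ± 3.18 in NB cells, a difference of -7.78, more than either SD. Only 0.0292% of all genes had a difference below it, while 20.7% were at least 1 lower in O and 19.4% at least 1 higher. Of the 4 genes, Ccnd2 and Ckap2l were lower in O by at least 1. A value of at least 1000 was found in 1 of 29 O cells, against 25 of 37 NB cells.

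**Figure D2:**
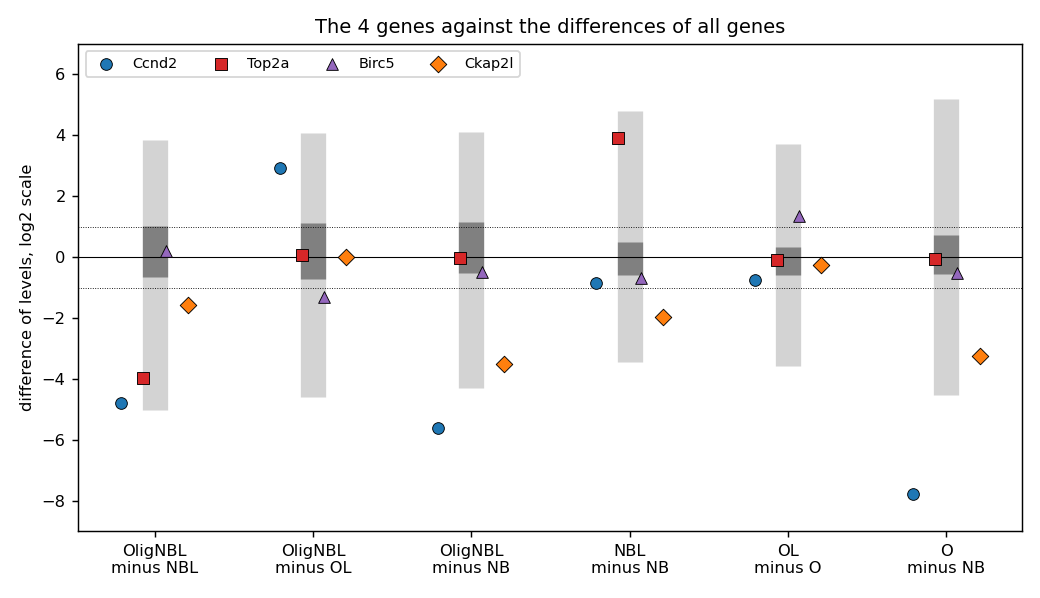
Difference of levels (log2 scale, vertical axis) of the 4 genes (symbols) in the 6 comparisons, the first population minus the second. Dark bars span the middle 50% and light bars the middle 95% of all 3422 genes, and dotted lines mark 1 and -1; Ccnd2 lies below the light bar in OligNBL minus NB (-5.61) and O minus NB (-7.78).

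The mitosis genes were each present in few cells. The bases upstream of their RefSeq start sites are shown because genes of this phase are known for the CCAAT box, bound by NF-Y, and for the cell cycle homology region, searched here as TTTGAA (the usual letters) and, as a variant of them, TTCGAA. RefSeq promoters (GRCm38.p6) matched 3 of the 4 genes, all but Ccnd2. The 250 bases before the start are given for 2, on the minus strand and 5′ to 3′, with matches to any of the 3 motifs on either strand in capitals:
Top2a, chr11:99024190-99024439: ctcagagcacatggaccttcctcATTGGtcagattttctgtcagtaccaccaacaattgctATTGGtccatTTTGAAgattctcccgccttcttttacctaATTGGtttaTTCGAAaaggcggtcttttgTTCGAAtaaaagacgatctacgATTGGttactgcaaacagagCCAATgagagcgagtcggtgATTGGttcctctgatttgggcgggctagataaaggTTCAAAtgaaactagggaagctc
Ckap2l, chr2:129297213-129297462: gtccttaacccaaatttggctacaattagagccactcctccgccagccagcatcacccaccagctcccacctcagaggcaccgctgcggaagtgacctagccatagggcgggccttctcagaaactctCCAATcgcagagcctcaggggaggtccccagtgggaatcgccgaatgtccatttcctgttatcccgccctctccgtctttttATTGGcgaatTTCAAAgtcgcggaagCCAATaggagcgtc
The Top2a window held CCAAT 6 times, TTTGAA 2 times and TTCGAA 2 times, and the Ckap2l window CCAAT 3 times and TTTGAA 1 time. No 2 of these matches overlapped, and TTCGAA, which reads the same on both strands, was counted once per place. The Birc5 window of the same length (chr11:117848987-117849236, plus strand) held none of these letters. Among 32851 promoters of 250 bases, 33.8% held CCAAT, 16% TTTGAA and 1.34% TTCGAA. Neither of the E2F letters TTTCCCGC and TTTGGCGC was found in the 3 windows, and 0.895% and 0.417% of all promoters held them. A match of letters does not show binding.

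Top2a (ENSMUSG00000020914.17; chromosome 11, 98992943 to 99024189, minus strand) encodes topoisomerase II alpha, which untangles sister DNA molecules before they separate. Its transcript was present in 11 NBL cells and in no cell of the other populations. These 11 cells were all those from CRBT66 to CRBT77 and made up a whole set of alike cells. Their Top2a values were 596.1, 653.7, 348.0, 464.7, 119021, 261.9, 316.8, 557.1, 1056, 905.3 and 450.7, in the order of cell number. No other NBL cell had more than 4.61, so these cells did not overlap with the rest. By presence, Top2a was found in 100% of this part and in 0% of the cells outside it. Over all genes, 2 were counted as confined to that degree. Whether that count includes Top2a itself was not recorded.

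Outside those cells Top2a was at or near 0. The highest value was 3.38 in OligNBL, 3.98 in OL, 4.20 in O and 4.77 in NB cells. Presence was 0 of 40 in OligNBL (a share of up to 8.81% is allowed), 0 of 22 in OL (up to 15.4%), 0 of 29 in O (up to 11.9%) and 0 of 35 in NB cells (up to 10.0%). In NBL cells it was 11 of 27, or 40.7% (interval 22.4 to 61.2%).

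The Top2a level was 4.20 ± 4.93 in NBL (n = 27) and 0.29 ± 0.68 in NB cells (n = 37), a difference of 3.91 that was smaller than the SD in NBL. It was 0.12 without the 11 cells of that set. OligNBL cells were at 0.25 ± 0.49, a difference of -3.95 from NBL, which was -0.15 without the same cells. The excess of Top2a in NBL thus lay in 1 set of neighbouring cells.

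Birc5 (ENSMUSG00000017716.15; chromosome 11, 117849251 to 117855743, plus strand) encodes survivin, a subunit of the chromosomal passenger complex that corrects faulty attachments of chromosomes to the spindle. It was present in 5 single cells, scattered over 3 populations. These were 1 OligNBL cell (CRBT128, value 30.5), 2 OL cells (4989 in CRBT175 and 11063 in CRBT182) and 2 NB cells (27.6 in CRBT27 and 25059 in CRBT34). It was present in no O or NBL cell, where the highest values were 8.77 and 9.44. The shares were 2.5% in OligNBL (interval 0.0633 to 13.2%), 9.09% in OL (1.12 to 29.2%) and 5.71% in NB (0.700 to 19.2%).

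Birc5 levels followed these few cells. The level was 0.33 ± 0.93 in OligNBL, 1.62 ± 3.77 in OL, 0.27 ± 0.75 in O, 0.13 ± 0.65 in NBL and 0.80 ± 2.58 in NB cells. The difference was 1.35 for OL minus O and -1.29 for OligNBL minus OL. Without the highest cell of each population these differences were 0.90 and -0.85. That setting left the high OL cell CRBT175 in. In cells with at least 1000 genes detected, which left out both high OL cells among others, the differences were 0.15 and -0.17. Both calls were lost in each case.

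Ckap2l (ENSMUSG00000048327.6; chromosome 2, 129268210 to 129297212, minus strand) encodes a protein of the mitotic spindle known from dividing neural progenitors. It was confined to GFP cells when presence is counted, with 4 of 27 NBL cells (14.8%, interval 4.19 to 33.7%) and 13 of 35 NB cells (37.1%, 21.5 to 55.1%). It was listed at 0 in all 40 OligNBL and all 22 OL cells, and the highest of 29 O cells had 9.27. The maximum was 3922 in NBL and 35485 in NB cells.

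Most Ckap2l cells were again neighbours. The 10 NB cells from CRBT46 to CRBT56 all had it present, with values of 35485, 498.3, 1138, 59.4, 118.8, 97.47, 3367, 1056, 498.3 and 153.0 in the order of cell number. They formed a set with the NB cell CRBT22, where it was 0, and with 2 NBL cells, of which CRBT57 had 3922. This set held 11 of the 17 cells with Ckap2l present. Ckap2l was present in 90.9% of the 11 NB cells of the set and in 4.93% of the cells outside that part. Over all genes, 31 were counted as confined to that degree. The other NB cells with Ckap2l present were CRBT3, CRBT35 and CRBT38 (7.80, 5845 and 155.7). The other NBL cells were CRBT62, CRBT63 and CRBT64 (130.9, 11.8 and 542.5), in a set of 4 neighbours.

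The Ckap2l level was 1.55 ± 3.06 in NBL and 3.52 ± 4.45 in NB cells, a difference of -1.96. Without the set in which it was highest the difference was -0.28, and with sets weighted equally it was 0.36, so the direction between the GFP populations turned on the weight of a set. Against NB cells, the difference was -3.52 for OligNBL cells, all of which were listed at 0, and -3.26 for O cells (0.26 ± 0.79 in O). Without the same set these were -1.48 and -1.22, and with sets weighted equally the difference of O from NB cells was -1.17.

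**Figure D3:**
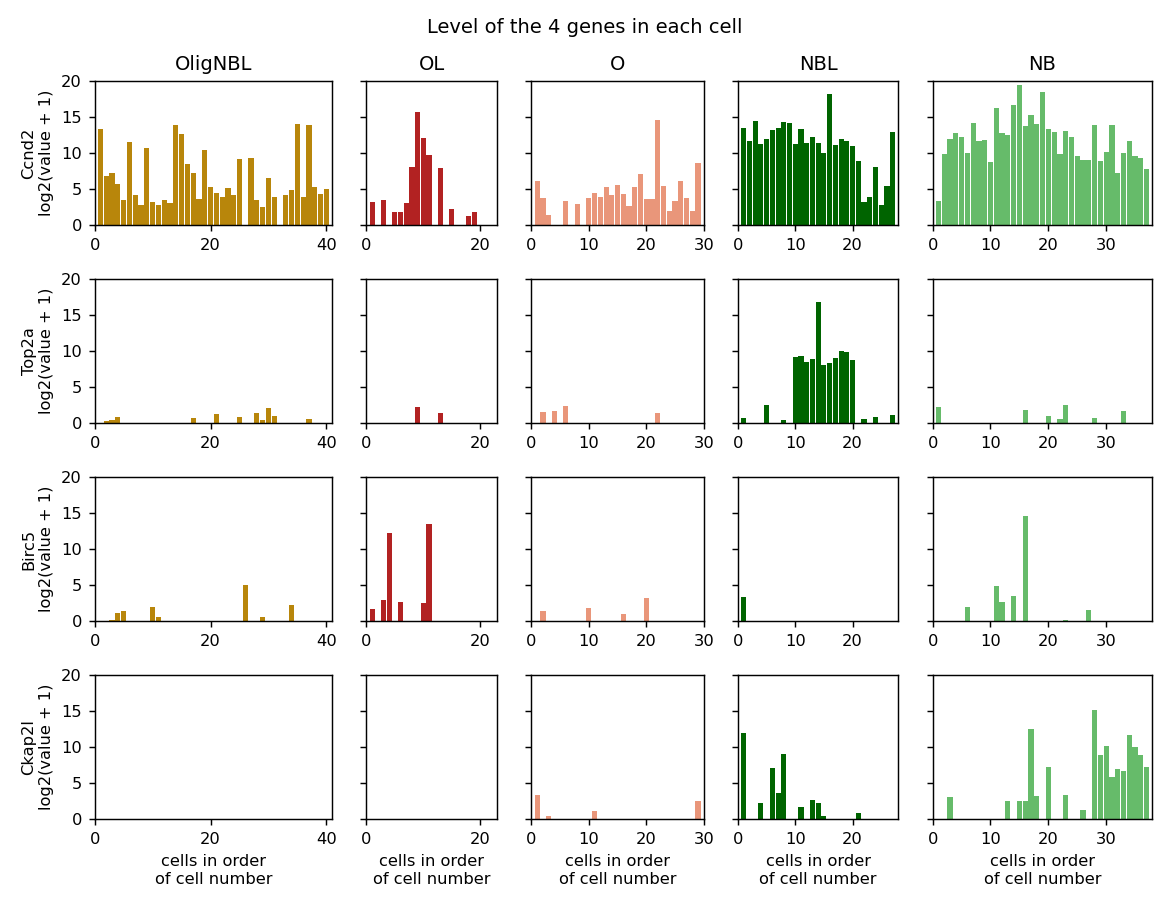
Level (log2 of value + 1, vertical axes) of each gene (rows) in every cell (bars), with cells of each population in the order of cell number. Top2a fills 11 neighbouring NBL cells, Ckap2l 10 neighbouring NB cells and some others, and Birc5 stands in single cells, while Ccnd2 runs through nearly all NBL and NB cells.

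No cell had more than 1 of the 3 mitosis genes present. Each was present in few cells (Top2a in 11, Birc5 in 5 and Ckap2l in 17), and no expected count was made. The lack of shared cells is therefore not read as exclusion. Of 153 cells with at least 500 detected genes, 33 had 1 of them (21.6%, interval 15.3 to 28.9%) and 0 had 2 or more, which allows a share of up to 2.38%. By population, 1 of 40 OligNBL, 2 of 22 OL, 0 of 29 O, 15 of 27 NBL and 15 of 35 NB cells had 1. When any value above the cell's lowest is counted, 3 OligNBL, 0 OL, 1 O, 6 NBL and 5 NB cells had at least 2 of the 3. All 11 cells with Top2a and all 17 with Ckap2l also had Ccnd2 present, as did 3 of the 5 with Birc5. They made up 9.82%, 15.2% and 2.68% of the cells with Ccnd2 present. Since Ccnd2 was present in 92.6% of NBL and 97.1% of NB cells, joint presence in GFP cells adds little to its own share.

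Other genes of the cycle were read from lists. Of 61 G2 and mitosis genes 9 were measured, of 43 S phase genes 13, and of 30 genes around G1 and D cyclins 6. Most genes of mitosis, such as the B cyclins and aurora kinases, were not analysed here.

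Set by set, the measured genes came in different combinations. Of all genes, 58.5% were present in at least 90% of the cells of some part. The counts below are therefore not read as a cycle state. In the 11 NBL cells with Top2a, the anaphase-promoting complex subunit Cdc27 (level 13.25) and the inhibitor Cdkn1b (7.66), known for holding cells in G1, were present in 11 of 11 cells, and the polymerase subunit Pola1 in 8. None of the other 8 measured G2 and mitosis genes was present in more than 1 of them. In the 11 NB cells of the Ckap2l set, Rrm2 (level 9.82), the nuclear lamina protein Tmpo (9.80) and the histone chaperone Anp32e (9.15) were present in 11 of 11 cells, and Top2a in 0. These NB cells had a median of 2 of 17 neuroblast genes present (1 to 5), against 5 over all NB cells. The 4 NBL cells CRBT62 to CRBT65 had Ckap2l and Rrm2 present in 3 and Tmpo and Anp32e in 2.

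Other sets had cycle genes without any of the mitosis members in most cells. In the 8 OL cells CRBT183 to CRBT190, the replication genes Mcm5, Cdc6, Gins2, Tipin and Rpa2 were present in 8 of 8, with Ccnd2 in 1 and Top2a, Birc5 and Ckap2l in 0. In 10 OligNBL cells (CRBT101 to CRBT110) the polymerase clamp Pcna was present in 10 and Ccnd2 in 4. In 11 OligNBL cells (CRBT123 to CRBT134) the Ccnd2 partner Cdk4 and the condensin subunit Ncapd3 were present in 11 and Ccnd2 in 7. In 8 OligNBL cells (CRBT135 to CRBT142) Hjurp, which loads centromeric histone, was present in 8, as was Ccnd2. These counts too are read beside the 58.5% of all genes given above. The share of all genes present in every cell of each set was not counted.

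**Figure D4:**
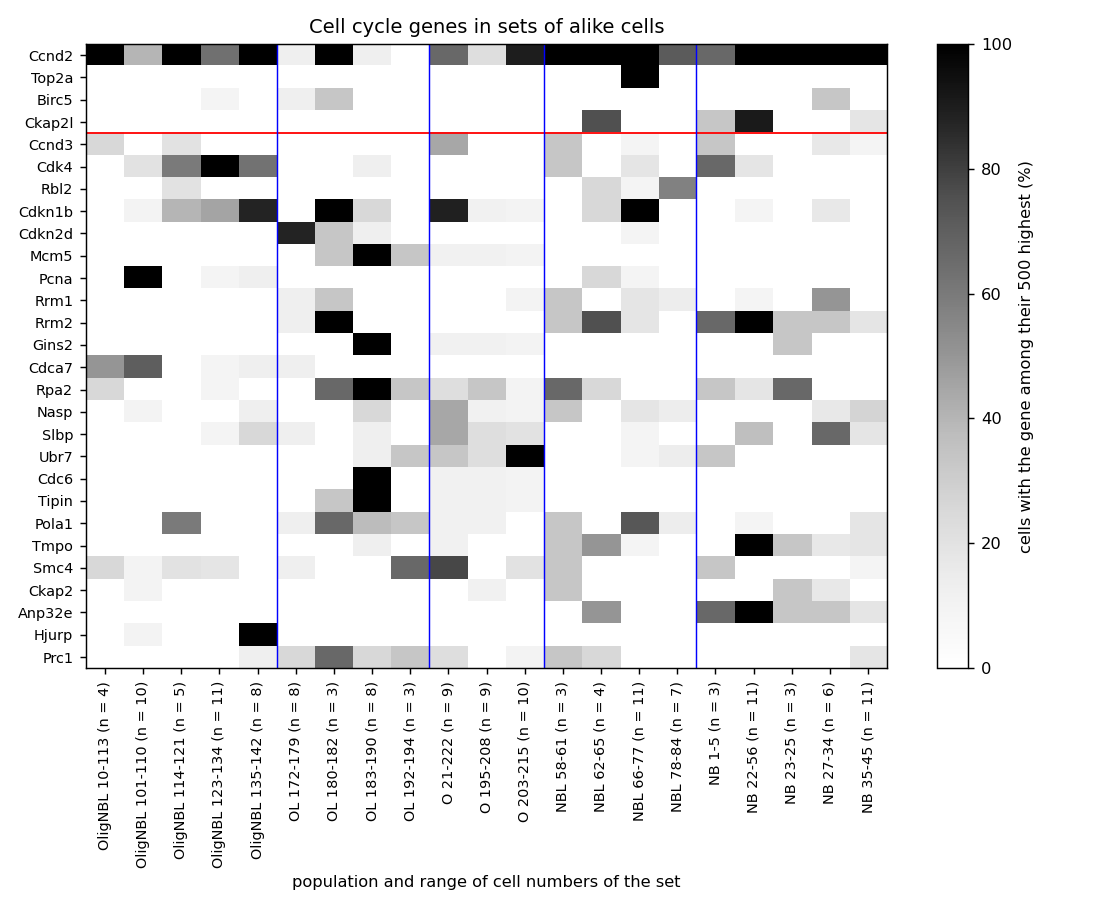
Share of cells (grey scale, 0 to 100%) with each measured gene (rows; the 4 genes above the red line, then the G1, S phase and G2 and mitosis lists) present, in the 21 parts of at least 3 alike cells (columns, by population and range of cell numbers; n counts cells with at least 500 detected genes). Ccnd2 is dark in most NBL and NB columns and in some of the others, while Top2a is dark only in the column of CRBT66 to CRBT77.

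Over whole populations the G2 and mitosis list did not move as a block. For comparison with the counts below, the shares of all 3422 genes at least 1 higher and lower were 25.7% and 20.3% in OligNBL against NBL, 27.3% and 21.1% in OligNBL against OL, 27.5% and 18.9% in OligNBL against NB, 17.4% and 17.3% in NBL against NB, 15.9% and 15.7% in OL against O, and 19.4% and 20.7% in O against NB. In OligNBL against NBL, 1 of the 9 measured G2 and mitosis genes was at least 1 higher (Hjurp) and 4 were lower (Top2a, Ckap2l, Tmpo and Anp32e), with a median difference of 0.06 beside 0.03 over all genes. In NBL against NB, Top2a was higher and Ckap2l, Tmpo and Anp32e were lower (median -0.46, all genes near 0). Tmpo averaged 2.14 ± 3.23 in NBL cells, against 4.07 ± 4.88 in NB cells. Anp32e averaged 1.56 ± 2.94 in NBL cells, against 4.14 ± 4.51 in NB cells. In OL against O, Birc5 was higher and the condensin subunit Smc4 lower (1.59 ± 1.46 in OL, 2.63 ± 2.37 in O; median -0.08, all genes -0.10).

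In the remaining comparisons the list also split. In OligNBL against OL, Hjurp was higher, and Birc5 and Prc1 were lower (median 0.00, all genes 0.13). In OligNBL against NB, Smc4 and Hjurp were higher and Ckap2l, Tmpo and Anp32e lower (median -0.40, all genes 0.08). In O against NB, Smc4 and Prc1 were higher and Ckap2l, Tmpo and Anp32e lower (median -0.34, all genes 0.09).

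Genes around Ccnd2 did not follow its order. Cdk4, the kinase that D cyclins activate, was at 5.06 ± 3.81 in OligNBL, 0.59 ± 1.20 in OL, 0.07 ± 0.26 in O, 1.34 ± 1.88 in NBL and 0.92 ± 2.29 in NB cells, highest where Ccnd2 was intermediate. Its presence was 21 of 40 in OligNBL, against 3 of 27 in NBL and 4 of 35 in NB cells. Ccnd3, the other D cyclin measured, was at 0.92 ± 1.90 in OligNBL, 0.52 ± 1.02 in OL, 1.34 ± 1.79 in O, 0.65 ± 1.25 in NBL and 1.32 ± 1.85 in NB. Cdkn1b was at 3.19 ± 3.77 in OligNBL, 1.58 ± 2.80 in OL, 3.10 ± 4.11 in O, 3.49 ± 4.30 in NBL and 0.49 ± 1.30 in NB. It was present in 12 of 27 NBL cells, of which 11 were CRBT66 to CRBT77.

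The G1 list had 1 of 6 genes higher and 2 lower in OligNBL against NBL, 3 and 1 in OligNBL against OL, 2 and 1 in OligNBL against NB, 2 and 0 in NBL against NB, 1 and 1 in OL against O and 1 and 1 in O against NB. Its medians were -0.30, 1.01, 0.08, 0.36, -0.43 and 0.03 in that order, beside 0.03, 0.13, 0.08, -0.00, -0.10 and 0.09 over all genes, of which 15.9 to 27.5% were higher and 15.7 to 21.1% lower. Of the 13 S phase genes, 2 were higher and 3 lower in OligNBL against NBL, 2 and 8 in OligNBL against OL, 2 and 3 in OligNBL against NB, 1 and 2 in NBL against NB, 6 and 1 in OL against O and 1 and 2 in O against NB. The S phase medians were -0.25, -1.51, -0.22, 0.13, 0.86 and 0.21, to be read beside the same all-gene values. Of the 6 S phase genes higher in OL than in O, 5 (Mcm5, Gins2, Rpa2, Cdc6 and Tipin) were those present in all of CRBT183 to CRBT190, and the other was Rrm2. These 6 were also among the 8 lower in OligNBL than in OL. Rrm2 was present in all 3 OL cells CRBT180 to CRBT182. The differences without these 2 sets of OL cells were not tested.

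Paralogs and partners were measured in part. Birc2 and Birc6, relatives of Birc5 that inhibit apoptosis or its enzymes, were both at least 1 higher in NBL than in NB: Birc2 at 2.48 ± 3.38 in NBL against 0.03 ± 0.21 in NB, and Birc6 at 5.81 ± 4.94 in NBL against 1.87 ± 1.95 in NB. Both were present in the 7 NBL cells CRBT78 to CRBT84, the part of that population with the lowest mean Ccnd2 level. Ckap2, a relative of Ckap2l, was present in 1 OligNBL, 0 OL, 1 O, 1 NBL and 2 NB cells. Of 6 measured genes of this list, 1 was higher and 2 lower in OligNBL against NBL, 1 and 0 in OligNBL against OL, 2 and 0 in OligNBL against NB, 2 and 0 in NBL against NB, 0 and 0 in OL against O and 1 and 0 in O against NB, counts too small to set beside the all-gene shares.

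Further lists cover the machinery that mitosis uses. Of 8 spindle checkpoint and anaphase-promoting complex genes, 0 were higher and 5 lower in OligNBL against NBL (median -1.46, all genes 0.03; 25.7% of all genes higher and 20.3% lower), and 4 were higher and 2 lower in NBL against NB (median 0.88; 17.4% of all genes higher and 17.3% lower). Cdc27 was among them in both, at 1.00 ± 1.39 in OligNBL, 7.68 ± 5.72 in NBL and 1.35 ± 1.77 in NB cells. It was present in 19 of 27 NBL cells, among them all 11 of CRBT66 to CRBT77. Bub3, Anapc7 and Anapc5, also called in both, were present in 9, 11 and 10 NBL cells. The 7 cells CRBT78 to CRBT84 made up 7, 7 and 6 of these. The differences without these 2 sets were not tested. In the other comparisons 0 and 3, 0 and 2, 3 and 1, and 1 and 2 were higher and lower, for OligNBL against OL, OligNBL against NB, OL against O and O against NB. Of 7 cohesin and condensin genes, 3 were higher and 2 lower in OligNBL against NBL, 3 and 0 in OligNBL against OL, 4 and 1 in OligNBL against NB, 1 and 3 in NBL against NB, 0 and 1 in OL against O and 1 and 2 in O against NB. Of all genes, 25.7%, 27.3% and 27.5% were higher in the 3 OligNBL comparisons, in the same order.

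The genes whose pattern was most like that of each member were ranked by Pearson's r of log2(value + 1) over all cells, among 3022 genes present in at least 8 cells. Cells of a set share their pattern, so r is a description. For Ccnd2 they were Higd1a (0.66), Smarce1-ps1 (0.64), Tmcc2 (0.64), Gm8494 (0.60) and Zfp119a (0.60). For Top2a they were Ube2j1 (0.97), B4galt5 (0.95), Smim15 (0.95), Nup214 (0.91) and Selenoh (0.91), and for Ckap2l Zc3h10 (0.95), Zfp330 (0.95), H2afx (0.94), Pbk (0.94) and Dcaf11 (0.94). Top2a and Ckap2l had an r of -0.03 with each other, and Ccnd2 had 0.27 with Top2a and 0.34 with Ckap2l. Birc5 was present in too few cells for this ranking.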

How the data were processed

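Values for 3422 genes per cell were used as the authors deposited them, in a table named as estimated counts. Kallisto and limma with build GRCm38 are named per the submitters' processing notes; the sources used here do not give their versions or how genes were selected. The deposited values behaved as a normalized signal: they were not whole, every cell had the same 8 top values (within a relative 1e-06) and column sums lay between 5155899 and 5161091. No count test was therefore used. Groups are the population names in the labels, and replicate numbers only name cells.

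A level averages log2(value + 1) over cells, with the cells' SD; a difference of levels understates that of low genes. A gene counts as higher or lower when its level differs by at least 1. Presence means rank 500 or better and a value above the cell's lowest. Levels were not compared between genes, as values are not per length. Named genes are the 4 members, measured members of the lists with values for those differing by at least 1, and the 5 genes most alike by r. Members, lists and rules were chosen with earlier results of these data known. Sets came from average linkage. Doublets were not called. Gene positions are from GENCODE vM21. The level step was tried on these values shuffled between cells gene by gene, with a shift added to some genes. Shuffling breaks up the sets of alike cells, so that trial does not bear on them. The software was scipy 1.17.1, numpy 2.4.6, pandas 2.3.3 and matplotlib 3.10.9 under Python 3.11.15. Alternative settings were the pseudocount, the weight of sets, detected genes, early cell numbers, the highest cells and the definition of presence; leaving out a whole set, or the 2 cells with few genes, was added after seeing the data.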

Additional observations from a re-analysis of the deposited data

How the results depend on the processing

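The 24 level differences had 156 alternative values. Every one moved by less than the larger of the 2 populations' SDs between cells, which is a loose limit. Top2a in OligNBL against NBL went from -3.95 to -0.15 within it, with an SD of 4.93 in NBL. Of the 156 values, 9 changed sign, of which 1 belonged to a difference of at least 1, and 16 moved a gene across a difference of 1. The other sign changes were in Birc5 (4), Top2a (2) and Ccnd2 (2), the last in NBL against NB with sets weighted equally (0.07) and OL against O with a pseudocount of 10 (0.11). Top2a lost its call in NBL against NB (0.12) and OligNBL against NBL (-0.15) without the set where it is highest. Ckap2l in NBL against NB was 0.36 with sets weighted equally, turning its direction, and in OligNBL against NBL it was -0.79 with a pseudocount of 10. With a pseudocount of 10, Top2a was at -2.62 in OligNBL against NBL and 2.60 in NBL against NB, and Ckap2l at -2.08 in OligNBL against NB, -1.29 in NBL against NB and -2.02 in O against NB. With sets weighted equally, Top2a was at -2.00 and 2.07, and Ckap2l at -2.49 in OligNBL against NBL and -2.12 in OligNBL against NB. In cells with at least 1000 genes detected Ckap2l was at -3.52 in NBL against NB and -5.03 in O against NB. Birc5 in OL against O ranged from 0.15 to 0.91 and in OligNBL against OL from -0.88 to -0.17 over the alternatives that ended the call. Ccnd2 gained a call in NBL against NB without cells numbered 21 or below (-1.18) and in OL against O in cells with at least 1000 genes detected (-1.55), which kept 9 OL cells. At any value above the cell's lowest, Ccnd2 was found in 95% of OligNBL, 59.1% of OL, 86.2% of O, 100% of NBL and 100% of NB cells; Top2a in 27.5% of OligNBL, 9.09% of OL, 13.8% of O, 63% of NBL and 20% of NB; Birc5 in 20% of OligNBL, 27.3% of OL, 13.8% of O, 3.7% of NBL and 20% of NB; and Ckap2l in 0% of OligNBL and OL, 13.8% of O, 37% of NBL and 54.3% of NB. Cells with 2 or more mitosis genes then numbered 3 in OligNBL, 1 in O, 6 in NBL and 5 in NB. Among the 300 highest genes, Ccnd2 was in 47.5% of OligNBL and 31% of O cells and Birc5 in 0% of OligNBL. With a pseudocount of 10, the genes at least 1 higher and lower were 437 and 377 in OligNBL against NBL (880 and 693 with a pseudocount of 1), 463 and 479 in OligNBL against OL (935 and 722), 338 and 359 in NBL against NB (595 and 592) and 361 and 308 in OL against O (544 and 536), and those higher were 443 in OligNBL against NB (940) and 434 in O against NB (665). Joining at 0.5 gave 35 sets; the Top2a cells lay in 1 set at 0.35, 0.4 and 0.5. The causes were not tested. No paired analysis was possible because cells carry no shared mouse or replicate and no test was made.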
